A study of Mus musculus with 4 samples.

Results

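The 6 genes that encode the actin isoforms of the mouse were described by the trimethylation of histone H3 at lysine 4 (H3K4me3) over their promoters in the gastrocnemius, a calf muscle made up largely of fast fibres. They were Acta1 (skeletal actin), Actc1 (cardiac actin), Acta2 and Actg2 (smooth muscle actins), and Actb and Actg1 (cytoplasmic actins). They were chosen by symbol and are 6 of the 21755 protein-coding genes annotated on the autosomes and the X chromosome in GENCODE M21 on mm10. The tissue came from adult female B6CASTF1/J mice at 2 months of age, which are the first generation of a cross between C57BL/6J and CAST/EiJ. It was prepared as 2 pools, E and F, of 2 biosamples each, and every pool gave 2 technical libraries of 200 to 600 bp fragments. There was 1 tissue, 1 strain and 1 condition and no treated group, so genes and pools were compared and no test between conditions was possible.

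Actin is the building block of the thin filament of the sarcomere, where myosin pulls on it, and of the filaments that give every cell its shape and cortex. The isoforms are nearly identical proteins made from separate genes. Acta1 supplies the thin filaments of adult skeletal muscle and Actc1 those of the heart, and Actc1 is also used by skeletal muscle during its development. Acta2 is made in the smooth muscle of blood vessels, Actg2 mainly in the smooth muscle of the gut and bladder, and Actb and Actg1 in nearly every cell type. H3K4me3 is a mark of promoters. It is found at most promoters rich in CpG dinucleotides and at those CpG-poor promoters that are in use, and the broadest domains often lie at genes that are characteristic of a tissue.

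Of the 4 deposited peak lists, 1 held the peaks replicated between the pools. The others held peaks labelled as pseudoreplicated, 1 list for pool E, 1 for pool F and 1 for both pools jointly (the pooled list). The 4 lists held 39544 to 45270 peaks each. Signal values are the authors' own, 1 for each peak, and what they are relative to was not stated, so they were ranked only within a list. Depth is unknown because no read counts come with the peaks, and no counting interval could be given. Unless another list is named, values below are from the replicated list. Of the markers of skeletal muscle, 10 of 10 had a peak at most 1000 bp from a TSS, and of those of cardiac muscle, 0 of 7, against 69.3% of all protein-coding genes. Lists of markers of smooth muscle (8 of 8), endothelium (5 of 5), fibroblasts (5 of 5) and macrophages (5 of 5) had such peaks as well. Several of them, such as Flt1, Kdr, Pdgfra, Col1a1 and Des, are genes of a high or intermediate CpG content. In these classes 99.3% and 93.9% of genes had a peak. Others, such as Pecam1, Col1a2, Myh11 and all 5 macrophage markers, are CpG-poor, a class in which 25.2% had a peak. Which cell types were present was not tested, and these counts alone do not show it. In a tissue of several cell types, a strong mark in few nuclei and a weak mark in many cannot be told apart.

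All 6 genes lie on the minus strand, on 6 different chromosomes. Acta1 spans chr8:123891769-123894751, with 7 exons and 1 transcription start site (TSS). Actc1 spans chr2:114047282-114053548, with 7 exons and 2 TSSs. Acta2 spans chr19:34241090-34255590, with 9 exons and 2 TSSs, and Actg2 spans chr6:83512905-83536265, with 9 exons and 6 TSSs. The cytoplasmic genes are Actb at chr5:142903115-142906754 and Actg1 at chr11:120345690-120348542, each with 6 exons and 9 TSSs. The 4 muscle genes were all in the CpG-poor class, with observed over expected CpG ratios of 0.25 (Acta1), 0.23 (Actc1), 0.28 (Acta2) and 0.19 (Actg2) in their most CpG-rich 1000 bp TSS window. The 2 cytoplasmic genes were CpG-rich, with ratios of 0.90 (Actb) and 0.95 (Actg1).

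The promoters of 4 of the 6 genes, Acta1, Actc1, Acta2 and Actg1, were found in the RefSeq table for the GRCm38.p6 assembly (mm10). The upstream sequence of 3 of them is shown because these 3 hold an exact match to the CArG box, the element that serum response factor binds in actin promoters. Each is given 5′ to 3′ on the minus strand and ends before the first base of the GENCODE transcript, and capitals mark the CArG box and, in Acta1, the letters TATAAA. The stretches are chr8:123894776-123895025 for Acta1, chr2:114052888-114053125 for Actc1 and chr11:120348543-120348745 for Actg1.
Acta1: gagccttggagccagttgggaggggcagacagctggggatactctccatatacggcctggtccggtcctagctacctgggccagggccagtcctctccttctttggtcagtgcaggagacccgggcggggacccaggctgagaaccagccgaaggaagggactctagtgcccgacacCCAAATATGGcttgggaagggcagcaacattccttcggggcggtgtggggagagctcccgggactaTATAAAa
Actc1: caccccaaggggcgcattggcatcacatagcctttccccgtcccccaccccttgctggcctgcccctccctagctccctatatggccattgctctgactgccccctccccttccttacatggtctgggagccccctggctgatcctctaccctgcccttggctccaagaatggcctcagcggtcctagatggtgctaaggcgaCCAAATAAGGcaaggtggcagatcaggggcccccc
Actg1: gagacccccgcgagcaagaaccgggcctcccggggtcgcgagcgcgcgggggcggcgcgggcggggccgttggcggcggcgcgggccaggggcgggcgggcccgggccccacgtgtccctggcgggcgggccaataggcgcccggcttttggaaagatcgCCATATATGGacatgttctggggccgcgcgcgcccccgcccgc

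The CArG box was searched by its consensus, whose reverse complement is the same consensus, in the 250 bases before the RefSeq start, whose last upstream base is position −1. It lay at −73 to −64 in Acta1 (CCAAATATGG), at −47 to −38 in Actc1 (CCAAATAAGG) and at −90 to −81 in Actg1 (CCATATATGG). From the GENCODE starts, it lay at −97 to −88 in Acta1, at −35 to −26 in Actc1 and at −43 to −34 in Actg1. The motif was found in 1.47% of all 32817 promoter windows. No exact match lay in the window of Acta2, of which nearly all falls on the first GENCODE exon, so the letters upstream of the annotated start were hardly covered there. TATAAA, searched like the next motifs on both strands, lay at −7 to −2 in Acta1 and in no other of the 4 windows, against 12.4% of all windows. Counted from the GENCODE start of Acta1, those letters lie at −31 to −26. GGGCGG, the GC box, occurred 2 times in Acta1 and 6 times in Actg1, where a neighbouring pair overlapped, and 32.7% of all windows held it. CATTCC, the MCAT element bound by TEAD factors, occurred once each in Acta1 and Acta2 (there within the first GENCODE exon), against 12.6% of all windows, and CCAAT once each in Actc1 and Actg1, against 33.8%. None of these letters overlapped a CArG box. The Actg1 window stood apart in composition, with a CpG ratio of 1.11, against 0.39 in Acta1, 0.17 in Actc1 and 0.23 in Acta2 and a median of 0.37 over all windows. Peaks covered 100% of the windows of Acta1, Acta2 and Actg1, and 57.6% of that of Actc1.

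Genes with a peak at most 1000 bp from a TSS are called marked here. Of the 6 actin genes, 5 were marked, against 69.3% of all protein-coding genes. The lists of pool E, pool F and the pooled list marked the same 5 genes, against 69.3%, 68.9% and 69.5% of all protein-coding genes. The unmarked gene was Actg2 in all 4 lists. Within the CpG classes, 99.3% of the CpG-rich genes and 25.2% of the CpG-poor genes were marked, so a mark at Actb and Actg1 was the rule for their class. Marks at 3 of the 4 muscle actin genes stood beside a class in which most genes had none.

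**Figure D1:**
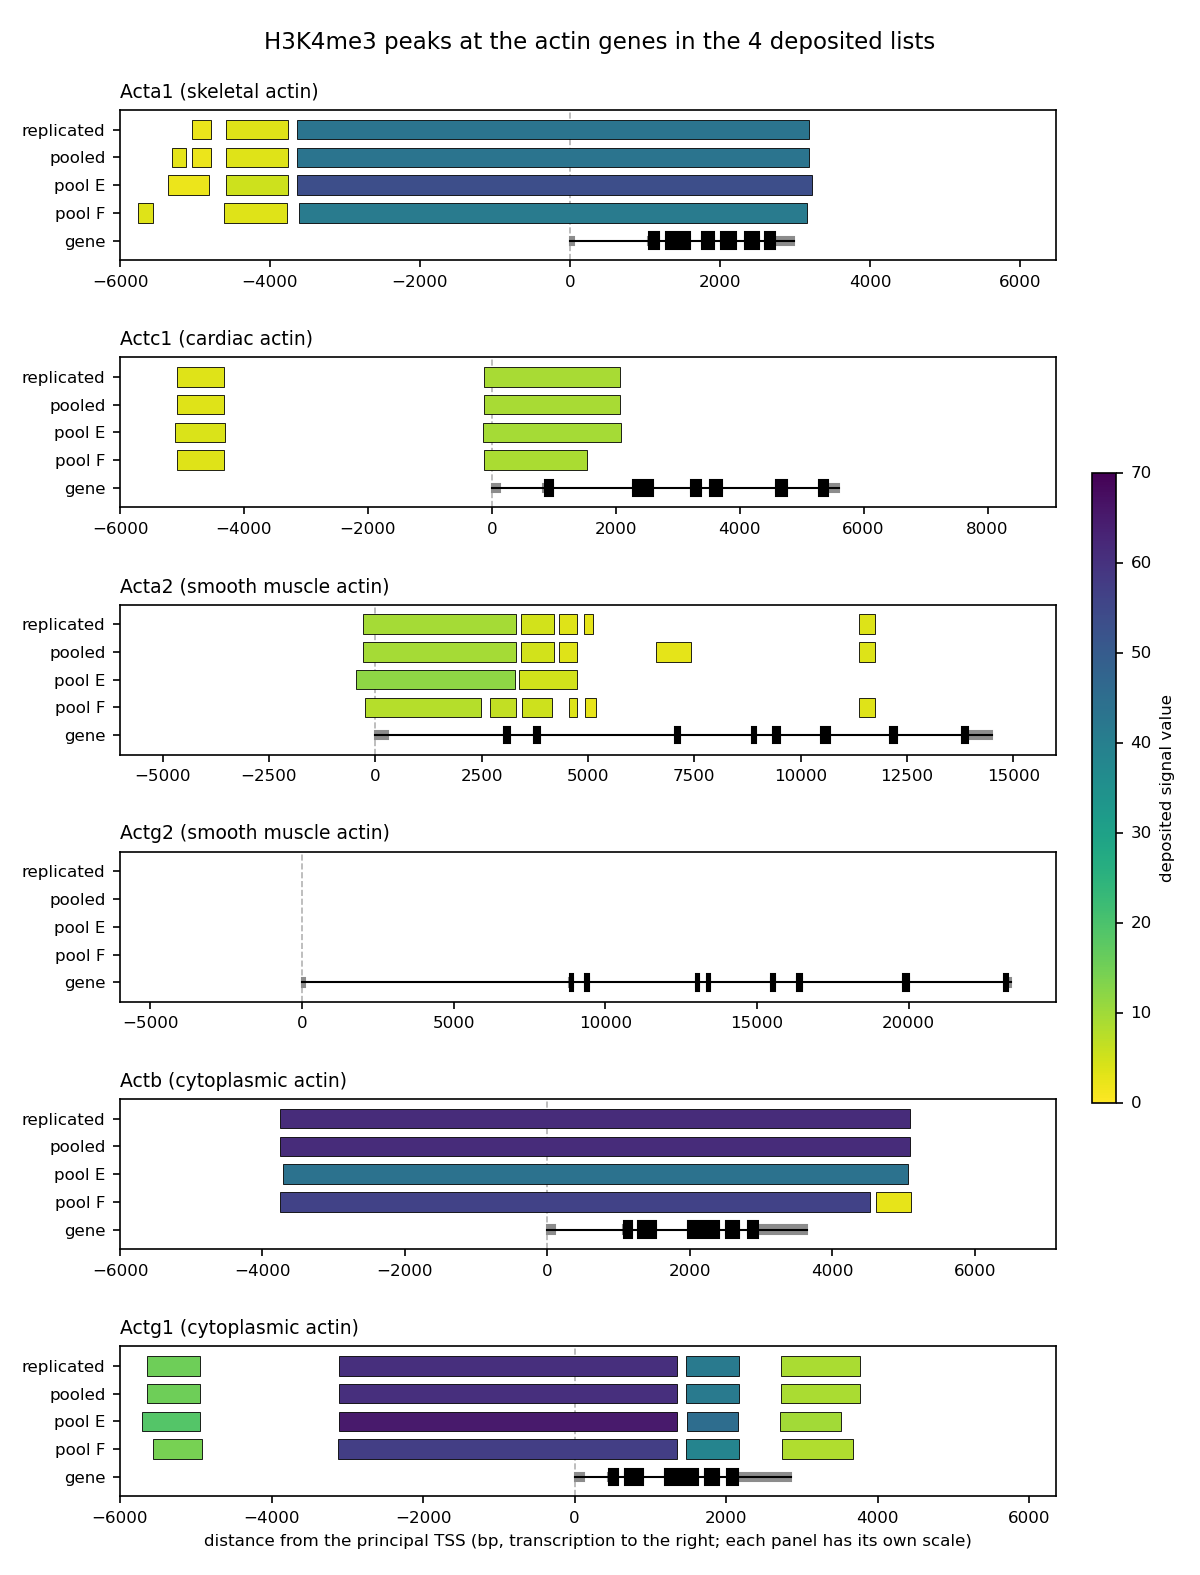
Peaks at each actin gene in the replicated, pooled, pool E and pool F lists, with distance from the principal TSS in bp on the x axis (transcription to the right, a separate scale per panel) and the deposited signal value as colour. The bottom row of each panel is the principal transcript (thick black, coding; thick grey, untranslated; line, introns); the domains of Acta1 and Actb cover the whole gene, that of Actc1 begins near its TSS, and Actg2 has no peak.

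The map of peaks by list shows 3 forms of domain among the 5 genes. At Acta1 and Actb it covered the whole gene, with 5043 bp and 3755 bp before the TSS and 209 bp and 1447 bp past the 3′ end, at Actg1 it was broken over the gene body, and at Actc1 and Acta2 it began close to the TSS and ran downstream.

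Acta1, the actin of the adult skeletal thin filament, had a domain of 8235 bp, at the 96.6th percentile of the widths of all 15067 marked genes, whose median was 2400 bp. Pool E gave a width of 8586 bp and pool F one of 8924 bp. Its main peak alone measured 6825 bp and covered 100% of the gene. The signal value was in the middle of the range, at 43.0, the 44.3rd percentile, where the median marked gene had 45.2. In pool E it was 53.4, the 58.6th percentile, and in pool F 41.1, the 45.3rd. Among CpG-poor marked genes alone, the same signal value stood at the 86.4th percentile and the width at the 95.3rd. Acta1 was thus a broad domain of moderate height among all genes and a high one within its CpG class. The summit lay 391 bp downstream of the TSS, in intron 1.

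The Acta1 domain leaned upstream. Of its bases, 5043 lay before the TSS and 3191 after it, so 38.8% lay downstream. The median was 68.1% (interquartile range 56.2% to 79.2%) over 12828 marked genes with the 5′-most end of the gene inside the domain. For these genes the share was counted from that 5′-most end, which at Acta1 is its only TSS. At Acta1 the share was 37.5% in pool E and 35.5% in pool F. The upstream part held the TSS of Gm29773, an annotated antisense transcript that starts 1522 bp upstream of Acta1 and runs the other way. The part of that transcript in the lean was not tested. The outermost pieces were small peaks with signal values of 3.29 and 1.94, joined to the main peak because they lay within 1000 bp.

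Actc1, the actin of the heart, had a peak of 2193 bp, a width at the 42.5th percentile, and a signal value of 9.07, at the 6.92nd percentile. In pool E the signal value was 9.41 and the width 2226 bp, and in pool F they were 8.75 and 1664 bp. The low rank of the signal held in both pools, at the 6.17th percentile in pool E and the 6.64th in pool F. The peak began 132 bp before the principal TSS and had its summit 437 bp after it, in intron 1. The other Actc1 TSS, 661 bp further upstream, lay 529 bp outside the peak. None of the 7 cardiac markers was marked in any of the 4 lists. Among them were Mybpc3, Myh6 and Myl7, which encode proteins of the heart's sarcomere, Nkx2-5, a cardiac transcription factor, and Nppa, a natriuretic peptide of the atrium. Of the 7, all but Nkx2-5 are CpG-poor like Actc1, a class in which 25.2% of genes were marked.

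Acta2, the actin of vascular smooth muscle, had a signal value as low as that of Actc1 over a wider domain. Its signal value was 9.33, at the 7.06th percentile, with 11.9 in pool E and 7.70 in pool F. Its domain measured 5409 bp, at the 89.8th percentile, with 5196 bp by the list of pool E and 5437 bp by that of pool F. The order of the signal values of Acta2 and Actc1 was not stable: Acta2 stood higher in pool E and lower in pool F. Their widths did not overlap between the pools. Nearly all of the Acta2 domain, 94.5%, lay downstream of the TSS, and the summit was at 885 bp, in intron 1, as in pool E (884 bp) and pool F (890 bp). The second TSS of the gene lies 1360 bp downstream of the first and fell inside the TSS peak, 475 bp from the summit. Beyond the TSS peak the gene held 4 further small peaks, with signal values of 2.89 to 4.69. Their summits lay in intron 3, exon 3 and intron 7. Pool E had 1 such peak and pool F 5, but the difference partly reflects where peaks were split. The pool E peak, of 1364 bp, spanned separate pool F peaks of 181 bp and 708 bp. Another pool F peak, of 613 bp with a signal value of 6.53, lay almost wholly under the TSS peak of pool E. The pools shared 82.7% of the bases covered in pool E and 86.1% of those in pool F.

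The smooth muscle markers were marked at all 8 genes, with signal values of 4.22 to 50.8 and a median of 20.3. The highest were Des (50.8), the intermediate filament desmin, which is also on the skeletal muscle list, Synpo2 (33.8), an actin-binding protein, and Smtn (31.5), smoothelin. Genes chosen here after their values were seen, because they are used as smooth muscle markers beside Acta2, were Myh11, a smooth muscle myosin (10.96), Tagln, transgelin (6.09), and Cnn1, calponin (4.22). The signal value of Acta2 lay within the range of these 3 in the replicated list and in pool F, and above it in pool E, where Acta2 had 11.9 and Myh11, the highest of the 3, had 11.3. The other listed markers, from Mylk (20.0) and Lmod1 (20.7) to Des (50.8), all exceeded Acta2. They did so in both pools as well. The part of any of these genes in the mark at Acta2 was not tested.

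Actg2, the actin of enteric smooth muscle, was without a peak at all 6 of its TSSs and over its 23361 bp body. Its principal TSS was 28647 bp from the nearest peak, and its closest TSS, 9363 bp downstream of the principal one, was 19284 bp away. In pool E the closest TSS was 19295 bp from a peak, and in the list of pool F 19261 bp. That nearest peak, with a signal value of 50.3, belongs to the promoter of Dguok, a mitochondrial deoxyguanosine kinase gene downstream of Actg2. Without read counts no detection limit could be set for it.

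Actb, the main cytoplasmic actin, had the widest domain of the 6 genes in the replicated list and the highest signal value there. The domain was a single peak of 8842 bp, at the 97.2nd percentile of width, and measured 8784 bp by the list of pool E and 8860 bp by that of pool F. It began 3755 bp before the principal TSS, covered 100% of the gene and ended 1447 bp past its 3′ end. Acta1 and Actb were the 2 actin genes whose body was fully covered. Of the 662 marked genes of 2500 to 4000 bp, the length range of both, 56 (8.46%) were fully covered, and the median cover there was 46.4%. In pool F the last stretch was a separate peak of 485 bp with a signal value of 2.70. By joined width, Actb and Acta1 changed order between the pools: Actb was wider in pool E and Acta1 in pool F. Their joined widths thus did not differ beyond the spread. This order depended on joining, since the outermost Acta1 piece in pool F was a peak of 200 bp with a signal value of 3.31. By the main peak alone Actb was wider in both pools. It had 8784 bp (pool E) and 8282 bp (pool F), against 6868 bp and 6776 bp at Acta1.

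By rank within its list, the signal value of Actb differed between the pools more than that of the other 4 marked actin genes. Its signal value was 43.7 in pool E and 56.1 in pool F, against 61.4 in the replicated list. Pool E gave the higher value in 90.6% of the 14930 genes marked in both pools, and at Actb it gave the lower one. Actb stood at the 38.8th percentile in pool E, the 92.0th in pool F and the 96.3rd in the replicated list. The difference in percentile, pool E minus pool F, was −53.2 points, and a difference at least as large in either direction was found in 88 of 14930 genes (0.589%). The median absolute difference over these genes was 3.45 points. At the other 4 marked actin genes the difference was 13.3 points (Acta1), −0.47 (Actc1), 2.33 (Acta2) and −4.38 (Actg1). The value in the replicated list was above both pool values, as at 6.17% of the 14930 genes. The −log10 q-value of the Actb peak moved less in percentile, with 389 in pool E, the 67.3rd percentile, and 377 in pool F, the 98.5th. The width and the place of the summit held, at 280 bp (pool E) and 218 bp (pool F) after the TSS. The rank of the signal at Actb therefore rested on which list was read, while its width did not.

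**Figure D2:**
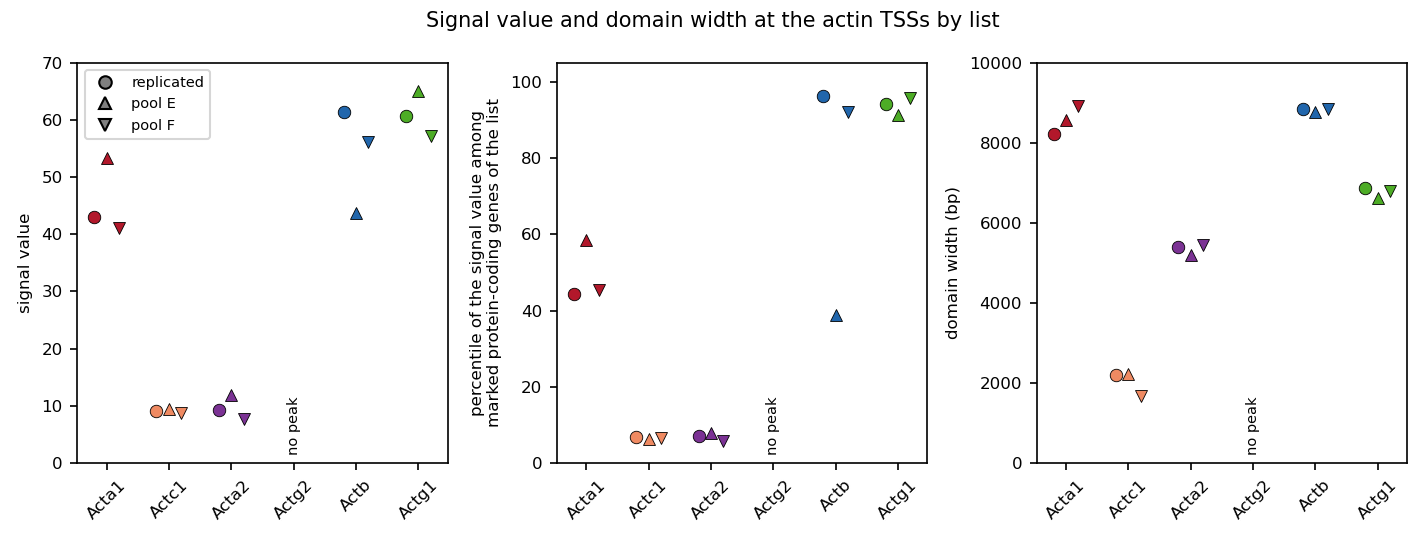
Signal value (left), its percentile among the marked protein-coding genes of the same list (middle) and domain width in bp (right) for each actin gene, with 1 point for each of the replicated, pool E and pool F lists. Actb had 43.7 in pool E and 56.1 in pool F and Acta1 had 53.4 in pool E and 41.1 in pool F, while by percentile the pools lie farthest apart at Actb; Actg2 has no peak in any list.

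Actg1, the second cytoplasmic actin, had a signal value of 60.7, at the 94.1st percentile, with 65.1 in pool E (91.3rd percentile) and 57.2 in pool F (95.7th percentile). Its domain measured 6877 bp, at the 94.4th percentile, with 6625 bp by the list of pool E and 6795 bp by that of pool F. The plot of signal values by list shows it close to Actb in the replicated list and in pool F, and above it in pool E. In every list the domain consisted of 3 peaks. The main one measured 4461 bp and held 8 of the 9 TSSs, the second of 691 bp lay around the most downstream TSS with a signal value of 41.4 and its summit in intron 4, and the third of 1042 bp straddled the 3′ end with a signal value of 8.96. The third lay over 1000 bp from every TSS and so counted as a further peak over the gene body.

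The gaps in the Actg1 domain fell on exons. One of 124 bp lay wholly in coding sequence of exon 4 and another of 559 bp wholly in the untranslated part of exon 6. Both were found elsewhere in the genome, at 98% identity or more, over 100% of their length. Of the exon bases of Actg1 under peaks, 90.7% (1151 of 1269) had such copies too. Over the whole gene body, 65.8% of the bases had a copy of at least 95% identity over 100 bp or more, against 20.6% at Actb, 3.63% at Acta2, 2.78% at Actg2, 0% at Acta1 and 0% at Actc1. How reads that match several places were handled is not given in the sources used here, and the part of the copies in the gaps was not tested. The signal over the exons of Actg1, and to a lesser degree Actb, is therefore uncertain.

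The upstream part of the Actg1 domain was shared with another transcript. The TSS of 0610009L18Rik, annotated as a bidirectional promoter long non-coding RNA, lies 136 bp upstream on the other strand. The main peak reached 3111 bp before the Actg1 TSS, so it covered both starts. The microRNA genes Mir6935 and Gm23419 also start within the domain, 1129 bp and 1723 bp downstream of the Actg1 TSS. A peak cannot be divided among transcripts that start within it, so these values belong to the locus.

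Peaks beyond the TSS window but over the gene body were found at 2 of the 6 actin genes, Acta2 and Actg1, against 27.7% of all protein-coding genes. The share in pool E was 27.8% of all genes, in pool F 26.5% and in the pooled list 29.1%, and the same 2 actin genes had such peaks in each. With so small a list, 2 of 6 is not a result about the actin genes. Body cover ranked the genes in another way, with 100% at Acta1 and Actb, 76.1% at Actg1, 35.0% at both Actc1 and Acta2 and 0% at Actg2.

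**Figure D3:**
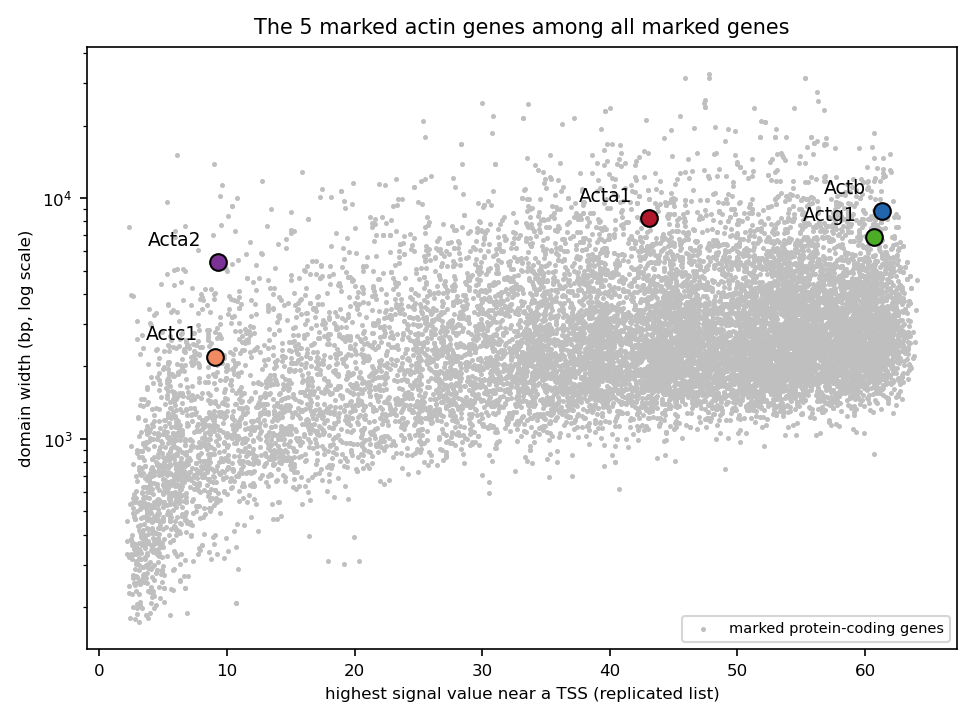
Domain width (bp, log scale) against the highest signal value near a TSS for the marked protein-coding genes of the replicated list (grey) and the 5 marked actin genes (coloured). Actb and Actg1 lie high on both axes, Acta1 is as wide at a middle signal value of 43.0, and Acta2 and Actc1 lie at the left with 9.33 and 9.07.

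The median width of the 2 cytoplasmic genes was 7859.5 bp, against 5409 bp for the 3 marked muscle genes, a ratio of 1.45. It was 1.48 in pool E and 1.44 in pool F. The ratio described no split between the classes, since Acta1 (8235 bp), a muscle gene, was wider than Actg1 (6877 bp) in all lists. With Actg2 unmarked, it rests on 5 genes. The plot of width against signal value shows Acta1 closer to the cytoplasmic genes than to the other muscle genes in width and between them in signal value.

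Among 14930 genes marked in both pools, likeness was measured as the distance over 4 values, the percentiles of signal value and width in pool E and in pool F. The genes nearest to Acta1 were Rnase4 and Ang, which share TSS peaks and so have equal values, at 2.18 percentile points. Nearest to Actc1 were Pla1a (4.71 points) and Cd200r1 (4.88 points), and nearest to Acta2 were Myh2, the myosin heavy chain of fast oxidative fibres (2.94 points), and Lnx1 (3.34 points). Flii and Mief2, again of equal values, were nearest to Actb at 5.45 points, with 40.8 in pool E and 56.5 in pool F, so they had the same order between the pools. Ifrd2 (1.73 points) and Ldha, lactate dehydrogenase A (1.91 points), were nearest to Actg1. No actin gene was among the 2 nearest genes of another, and the closest actin pair, Acta1 and Actb, stood 50.7 points apart.

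The genes that act on actin were marked nearly throughout. Of 8 transcriptional regulators of actin genes, 8 were marked, with a median signal value of 48.9. The highest were Srf, serum response factor itself (60.5), and its actin-sensing partners Mrtfa (54.5) and Mrtfb (53.5). Myocd, the myocardin coactivator of cardiac and smooth muscle, had the lowest at 9.52, and was singled out after its value was seen. Of 16 genes for proteins that bind actin monomers or turn filaments over, 16 were marked, with a median of 56.6. They were led by Cfl1 (63.0), a cofilin that severs filaments, Twf1 (62.5), a twinfilin, and Cfl2 (61.7), the cofilin of muscle.

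Of 16 matched genes for folding and modification of actin, 16 were marked, with a median of 46.2. The highest were Setd3 (63.2), which methylates a histidine of actin, and Tcp1 (62.5) and Cct8 (60.6), subunits of the chaperonin that folds it. Of 18 genes of the Arp2/3 complex and the actin-related proteins, 18 were marked, with a median of 51.3, against 17 in pool F and 17 in the pooled list. Their highest values were at Actr8 (60.3), Actr1a (59.7) and Actr5 (58.6), and the gene without a peak in those 2 lists was Actl6b, a neuronal chromatin remodelling subunit, with 4.41. These counts stand beside the 69.3% of all genes marked, and all of these genes but Abra and Naa80 are CpG-rich or intermediate, classes with 99.3% and 93.9% marked.

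Of 9 germ line and other actin-like genes, 2 were marked, Actrt3 (60.9) and Actl10 (29.3). Of the 7 without a peak, Actbl2, Actl11, Actl7a, Actl7b and Actl9 come first in the alphabet. All 7 were CpG-poor, the class in which 25.2% were marked.

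**Figure D4:**
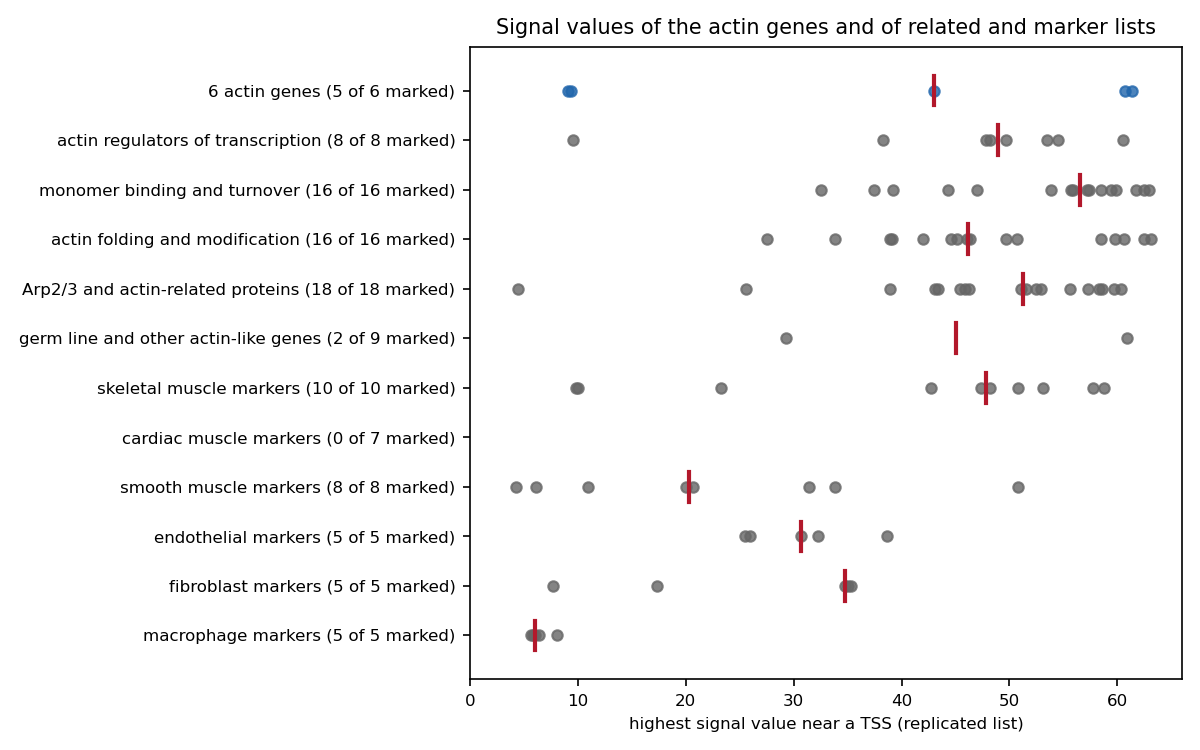
Highest signal value near a TSS in the replicated list (x axis) for each marked gene (points) of the 6 actin genes and of the related and marker lists, with the median of each list as a red bar and the number marked in the label. The actin genes fall at 9.07 and 9.33, at 43.0, and at 60.7 and 61.4; the cardiac list has no point.

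Beside the markers of cell types, the actin genes fell on different levels. The skeletal markers had 47.8 as their median signal value, and their median width was 9570.5 bp. Their highest values were at Mylpf, a fast myosin light chain (58.8), Actn3, the α-actinin of fast fibres (57.7), and Ckm, muscle creatine kinase (53.1). Acta1, with 43.0 and 8235 bp, lay within the range of that list on both measures, but that range was wide. It ran from 9.83 (Myh2) to 58.8 (Mylpf) in signal value and from 4961 bp (Myh1) to 24733 bp (Tnnt3) in width. Median signal values were 30.7 for the endothelial markers, led by Flt1 (38.6), Tek (32.3) and Kdr (30.7), which are receptors of vascular growth factors. They were 34.7 for the fibroblast markers, led by the collagen genes Col1a1 (35.3) and Col1a2 (35.0) and by the receptor gene Pdgfra (34.7). They were 6.02 for the macrophage markers, led by Csf1r (8.02), Cd163 (6.40) and Adgre1 (6.02). Actc1 and Acta2, at 9.07 and 9.33, were above all 5 macrophage markers and below all 5 endothelial markers, as the plot of signal values by gene list shows. In pool F that order did not hold, since Csf1r (8.75) equalled Actc1 (8.75) and exceeded Acta2 (7.70). Members of other lists lay near the same level in the replicated list. They were the skeletal markers Myh2 (9.83) and Myh1 (9.98), the fibroblast marker Lum (7.72) and the smooth muscle marker Myh11 (10.96). The other skeletal markers had 23.2 (Myh4) or more. A signal value at this level therefore did not separate the cell types.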

How the data were processed

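The authors made the narrowPeak lists on mm10 from filtered alignments, 1 list for pool E, 1 for pool F and 2 for the pools jointly, according to the text files deposited with the samples. The technical libraries of a pool share 1 alignment, so no list has a value per library. Aligner, peak caller and settings: not given in the sources used here. Each peak's deposited signal value and −log10 q-value are the authors' own. Of the replicated list's peaks, 96.8% had the same start and end in the pooled list, and 1.14% had a q-value above 0.05.

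From these lists, a gene's signal value was computed as the highest among the peaks within 1000 bp of any GENCODE M21 TSS. Its width was that of the widest domain there, after joining peaks at most 1000 bp apart. A percentile is the share of marked protein-coding genes of the same list at or below the value. The principal TSS is that of the principal transcript. CpG classes were taken from 1000 bp windows at the TSSs: CpG-rich genes had a window with an observed over expected ratio of at least 0.75 and at least 55% GC, CpG-poor genes had ratios under 0.48 throughout, and the rest were intermediate. Copies elsewhere in GRCm38.p6 were searched with blastn 2.17.0, and the rest ran in Python 3.11.15 with numpy 2.4.6 and matplotlib 3.10.9. The scripts were tested on simulated peaks.

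With 2 pools and no contrast, no test was made; genes are not replicates, and the pools' separate values give the spread. Alternatives changed the TSS window, the TSS set, the q-value, the joining distance and the list. The actin genes and all gene lists were chosen with earlier results of these data known. Named were the 6 actin genes, for each list the 3 marked members of highest signal value and the first 5 unmarked ones by alphabet, the 2 nearest genes by likeness and genes that start in an actin domain. Others, such as Dguok, were chosen after their values were seen. Cct6a was not matched to a single gene.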

Additional observations from a re-analysis of the deposited data

How the results depend on the processing

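The number of marked actin genes was 5 under every alternative run: TSS windows of 0 and 2500 bp, a q-value of at most 0.01, TSSs of protein-coding transcripts only, the pooled list and each pool alone. The number with a further peak over the gene body was 2 under each of these except the 2500 bp window, where it was 1. The ratio of cytoplasmic to muscle domain widths, 1.45, moved to 1.56 with a q-value of at most 0.01, to 1.56 in the pooled list, to 1.85 with no joining of peaks and to 1.69 with peaks up to 3000 bp apart joined. It ranged from 1.44 to 1.48 when either pool was left out, while the counts of 5 and 2 stayed. Without joining, Acta1 measured 6825 bp, Acta2 3600 bp and Actg1 4461 bp, so these widths depend on the joining distance, and with 3000 bp joining Actg1 measured 9416 bp. Actb kept 8842 bp without joining and with a q-value of at most 0.01, where Acta1 measured 7774 bp. The change of order between Actb and Acta1 in pool F therefore held only for joined widths. The signal percentile of Actb was 38.8 in pool E alone and 92.0 in pool F alone; the cause was not tested. Over the widths and signal percentiles of the 5 marked genes, 62 of the alternative values lay within 1 standard deviation between the pools and 18 did not. That tally cannot measure robustness. The TSS window and the TSS set left every width unchanged, and the pools that gave the deviation were also counted as alternatives. For the signal percentile of Actb the deviation was 37.6 points. No paired analysis was possible because no comparison between groups of samples was made. The depth is unknown, so the absence of a peak at Actg2 shows only that none was listed, and 2 pools give no estimate of the spread among mice.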
